A study of Mus musculus with 24 samples.

Results

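Antibodies are built from paired heavy and light chains, and the genes for these chains were followed in the epididymal white adipose tissue (eWAT) of male mice. They were taken as the genes of the deposited table whose mouse symbol begins with Ighv, Ighg, Igha, Ighd, Ighe, Ighm or Ighj, or with Igk or Igl followed by v, c or j, leaving out Ighmbp2, which encodes no antibody chain. This selected 10 of the 16730 genes in the table. The 9 constant region genes were Ighm, Ighd, Ighg3, Ighg1, Ighg2b, Ighg2c, Igha, Iglc1 and Iglc2, and the only variable region gene was Iglv1. The table gives no symbol for 2 further genes, which the reference list of gene names identifies as Igkc and Iglc3. They are outside the selection and outside its counts, but Igkc is the constant gene of all kappa light chains, so the values of both are given beside the others. The GENCODE mouse annotation lists 13 constant and 218 variable genes of immunoglobulins, of which 11 and 1 were in the table, so the use of variable genes by each mouse was not analysed here.

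The study asked how loss of the laminin α4 gene Lama4 from adipocytes alters fat tissue on chow and on a high-fat diet (HFD). It used QuantSeq, which reads a tag from the 3′ end of each transcript, on bulk RNA of 24 mice, with 1 library per mouse and 6 mice in each of 4 groups. Lama4 fl/fl mice carry floxed Lama4 alleles, and Lama4 AKO mice carry the same alleles together with a Cre recombinase under the adiponectin promoter, so all 24 mice were floxed and adipocytes were the cells targeted. Male littermates of each genotype received the regular diet 5015 or a diet with 45% fat for 20 weeks, which gives the groups chow fl/fl, chow AKO, HFD fl/fl and HFD AKO. By the paper's legends, chow was fed from weaning to 24 weeks of age. The HFD began at 6 weeks of age and ended at a later age than chow. Effects of diet and of age at collection therefore cannot be told apart.

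Library totals lay between 5579590 and 18764516 counts. The first principal component of all genes tested held 48.8% of the variance, and on it HFD fl/fl replicates 1, 2 and 5 lay between 41.6 and 65.2 while HFD fl/fl replicates 3, 4 and 6 lay between -69.0 and -8.63, within the range of the chow-fed mice. An earlier analysis of these data inferred that the study had set aside 5 libraries, namely chow fl/fl replicate 3, chow AKO replicate 5 and HFD fl/fl replicates 3, 4 and 6, and results are given with all 24 libraries and with the other 19. The adipocyte marker Adipoq ranged from 764 to 7897 CPM (counts scaled to the library total), and the 8 adipocyte markers measured summed to between 16945 and 57005 CPM over all libraries. In bulk tissue, fewer cells of a type and less RNA per cell cannot be told apart. Lama4 had group medians of 91.6 CPM in chow fl/fl, 113 in chow AKO, 78.6 in HFD fl/fl and 44.2 in HFD AKO mice, but tags from the 3′ end lie outside the floxed exon and give no check of the deletion.

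B lymphocytes carry immunoglobulin on their surface as an antigen receptor, and plasma cells, which arise from them, secrete it as antibody. A rearranged heavy chain gene is first expressed with the constant genes of IgM and IgD. Class switch recombination can later bring a constant gene of IgG, IgE or IgA behind the same variable segment, which changes the effector function and leaves the antigen specificity. Light chains are either kappa or lambda. Visceral fat depots hold B cells and plasma cells, and immunoglobulin transcripts make up a large part of the messenger RNA of a plasma cell, so few cells can give many tags.

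The constant genes of a family are similar in sequence, which bears on how well short tags tell them apart. In GRCm38 the heavy chain constant genes lie on the minus strand of chromosome 12 and the lambda genes on the minus strand of chromosome 16, while Igkc lies on the plus strand of chromosome 6. The last 60 coding bases of the 4 IgG constant genes are given in the direction of transcription because they hold the differences between the subclasses compared later. They come from the shortest coding transcript of each gene in GENCODE release M21 and lie in the last constant region exon, at chr12:113359668-113359727 (Ighg3), chr12:113328979-113329038 (Ighg1), chr12:113306392-113306451 (Ighg2b) and chr12:113287392-113287451 (Ighg2c). Capitals mark the 29 positions at which the 4 genes are not all alike.
Ighg3: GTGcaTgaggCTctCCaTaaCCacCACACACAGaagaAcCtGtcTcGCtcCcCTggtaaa
Ighg1: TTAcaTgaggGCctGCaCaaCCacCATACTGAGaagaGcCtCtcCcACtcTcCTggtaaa
Ighg2b: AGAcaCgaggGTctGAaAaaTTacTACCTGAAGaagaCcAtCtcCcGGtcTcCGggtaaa
Ighg2c: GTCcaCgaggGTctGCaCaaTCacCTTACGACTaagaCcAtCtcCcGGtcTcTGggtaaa
Pairs of IgG genes shared between 38 and 46 of these 60 bases. The same stretch of the lambda constant genes, at chr16:19061755-19061814 (Iglc1), chr16:19198539-19198598 (Iglc2) and chr16:19065368-19065427 (Iglc3), differs at 13 positions, again in capitals.
Iglc1: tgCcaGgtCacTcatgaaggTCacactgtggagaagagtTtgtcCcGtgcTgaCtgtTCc
Iglc2: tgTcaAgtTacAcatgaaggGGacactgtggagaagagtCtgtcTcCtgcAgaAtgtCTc
Iglc3: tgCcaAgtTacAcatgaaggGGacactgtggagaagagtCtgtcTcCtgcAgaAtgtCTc
Iglc2 and Iglc3 shared 59 of the 60 bases, while Iglc1 shared 47 with Iglc2 and 48 with Iglc3. Over whole transcripts, 7.65% of the 50-base stretches of Iglc2 and 10.7% of those of Iglc3 also occur in another immunoglobulin gene of the table. The share was 5.49% for Ighg2c, 4.15% for Ighg2b, 1.58% for Ighg3, 0.393% for Ighg1 and 0% for Ighm, Ighd, Igha, Iglc1 and Igkc. Within the last 300 bases of the transcripts it was 5.08% for Iglc2, 5.18% for Iglc3, 3.01% for Ighg2c and 0% for the other constant genes. Immunoglobulin genes absent from the table were not compared. Counts of Iglc2 and Iglc3 may therefore be split between them by the authors' counting and are uncertain as single genes.

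IgM was the most abundant heavy chain in every library. Ighm, which encodes its constant region (µ), had 414619 counts over the 24 libraries, and Igkc had 650309. Iglc1 followed with 36238, Ighg2b with 23961, Ighg2c with 17196 and Igha with 13572 counts. Iglc2 had 9396, Iglc3 7975, Ighg3 5415, Ighg1 4696, Ighd 1951 and Iglv1 887 counts. The 10 genes together took between 0.0393% of a library's counts, in HFD AKO replicate 5, and 0.642%, in HFD fl/fl replicate 1.

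Ighm ranged from 370 to 1581 CPM with a median of 664 in chow fl/fl mice, from 465 to 2468 with a median of 786 in chow AKO mice, from 618 to 4604 with a median of 1002 in HFD fl/fl mice and from 299.9 to 2359 with a median of 792 in HFD AKO mice. All 4 groups overlapped, and the highest and the lowest library of the study were both from HFD-fed mice. Ighd, whose δ chain forms IgD on naive B cells, had medians of 1.83, 3.41, 5.80 and 3.65 CPM in the same order of groups and ranged from 1.26 to 29.3 CPM over all libraries.

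The IgG genes were low in most mice and high in a few. Ighg2b, the constant gene of IgG2b, ranged from 5.70 to 64.1 CPM (median 18.3) in chow fl/fl mice, from 1.38 to 153 (median 6.12) in chow AKO mice, from 0.237 to 526 (median 87.5) in HFD fl/fl mice and from 10.9 to 145 (median 71.0) in HFD AKO mice. Ighg2c, the constant gene of IgG2c, ranged from 0.795 to 27.6 CPM (median 5.29) in chow fl/fl mice, from 0.788 to 78.7 (median 6.38) in chow AKO mice, from 0.474 to 192 (median 26.4) in HFD fl/fl mice and from 7.14 to 312 (median 105) in HFD AKO mice. The medians of both genes were higher in the HFD-fed groups, and with 24 libraries the ranges overlapped between all groups. Without the 5 libraries, the 3 HFD fl/fl mice lay above the 5 chow fl/fl mice, at 114 CPM or more against at most 49.6 for Ighg2b and at 43.0 or more against at most 27.6 for Ighg2c.

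Ighg1, the constant gene of IgG1, had medians of 1.44, 1.38, 2.61 and 8.0 CPM in chow fl/fl, chow AKO, HFD fl/fl and HFD AKO mice. It reached 52.3 CPM in chow AKO replicate 6 and 121 CPM in HFD fl/fl replicate 1, and had 0 counts in chow fl/fl replicate 4, which allows up to 3 counts, or 0.167 CPM, at that depth. Ighg3, the constant gene of IgG3, had medians of 5.51, 9.58, 2.78 and 5.27 CPM in the same order. Its highest value was 111.9 CPM in HFD fl/fl replicate 1 and its lowest 0.0789 CPM in HFD fl/fl replicate 4, so a single group held both ends of the range. Without the 5 libraries, HFD fl/fl mice had the highest Ighg3 median of the 4 groups in place of the lowest, with 14.9 CPM against 3.86 in chow fl/fl, and their Ighg1 median was 23.7 CPM.

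Igha, whose product IgA is the main antibody of mucosal secretions, had medians of 40.1, 14.9, 31.2 and 50.0 CPM in chow fl/fl, chow AKO, HFD fl/fl and HFD AKO mice. It ranged from 15.8 to 74.1, from 3.35 to 146, from 1.58 to 63.9 and from 23.1 to 83.1 CPM in these groups. The range of the HFD AKO mice lay within that of the chow AKO mice, and all groups overlapped.

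Igkc, the kappa constant gene, ranged from 268 to 3304 CPM (median 796) in chow fl/fl mice, from 204 to 5576 (median 587) in chow AKO mice, from 75.9 to 6319 (median 1688) in HFD fl/fl mice and from 470 to 5816 (median 1333) in HFD AKO mice. Iglc1, the constant gene of the λ1 chain, had medians of 19, 16.0, 83.4 and 89.4 CPM and ranged from 1.11 CPM in HFD fl/fl replicate 4 to 786 CPM in HFD fl/fl replicate 1. Iglc2, which encodes the λ2 constant region, had medians of 10.3, 9.62, 25.8 and 25.0 CPM, and Iglc3 had 9.999, 6.57, 21.6 and 16.2 CPM. The light chain medians were thus higher in both HFD-fed groups, with overlap of all groups in 24 libraries. Without the 5 libraries the HFD fl/fl median was 4157 CPM for Igkc and 369 CPM for Iglc1, and the 3 HFD fl/fl mice, at 155 CPM of Iglc1 or more, lay above the chow fl/fl maximum of 144. Iglv1, a lambda variable gene, had medians of 2.15, 0.411, 1.71 and 1.88 CPM and 0 counts in 2 libraries.

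**Figure D1:**
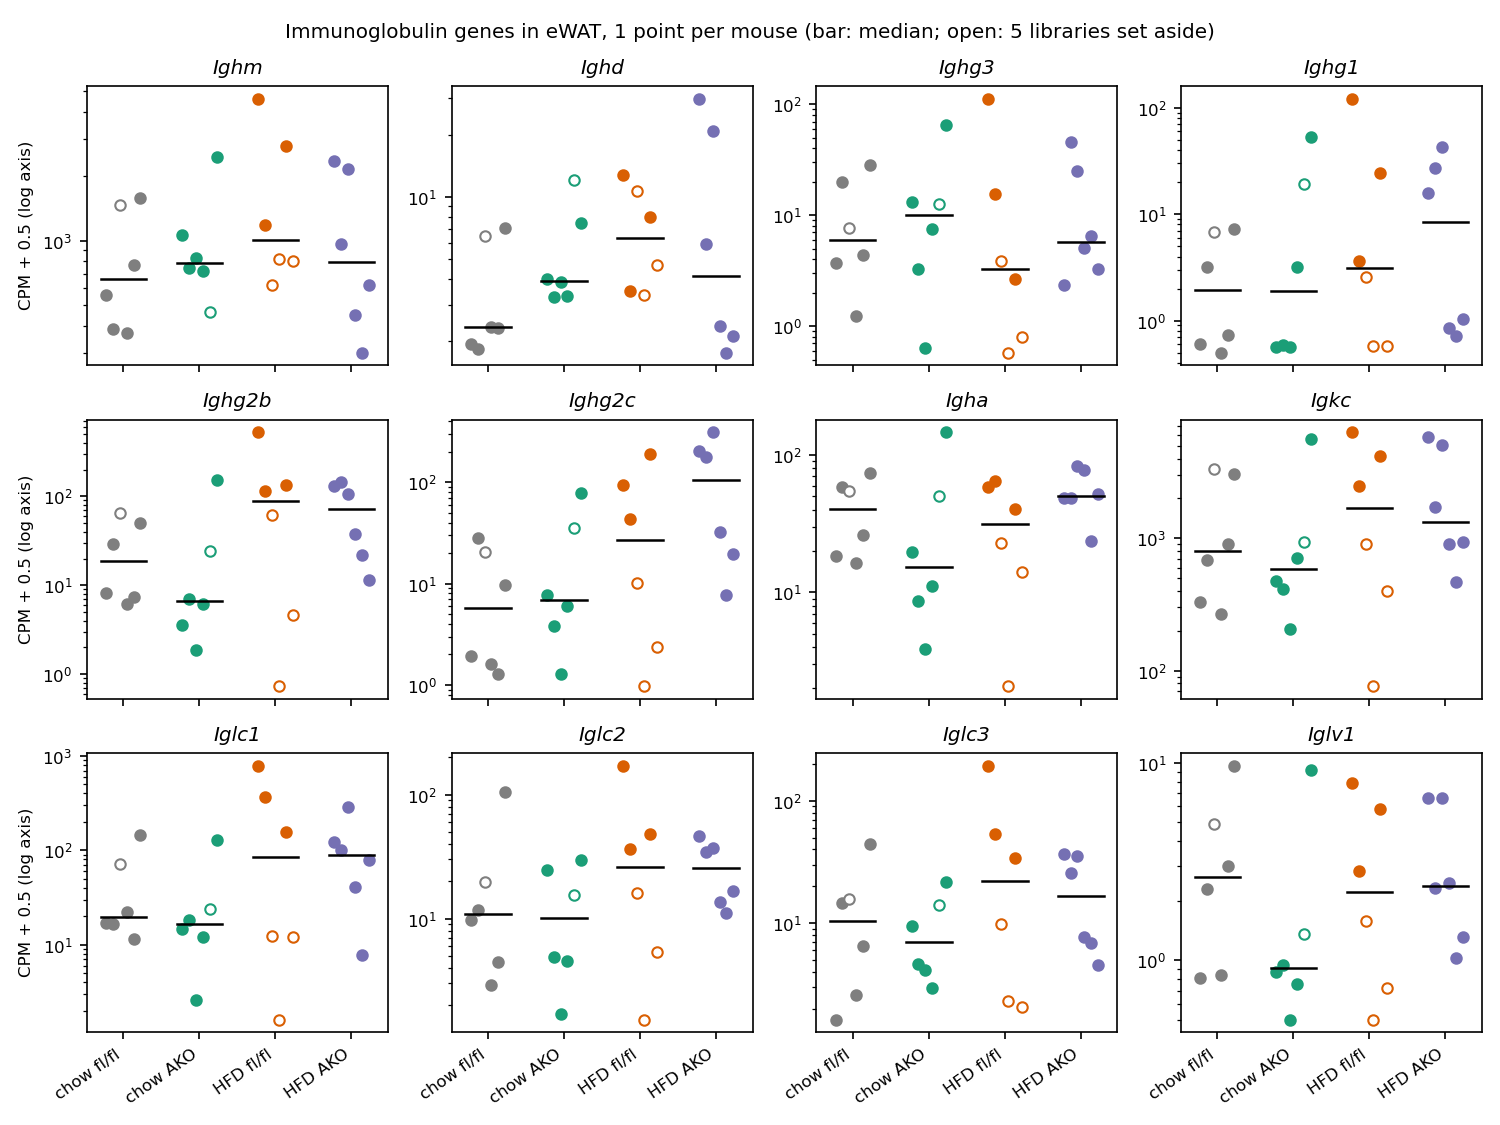
Level of each gene (CPM plus 0.5, log axis) in the 24 libraries by group, with 1 point per mouse, a bar at the median and open points for the 5 libraries set aside. Every gene spans a wide range within each group, as for Ighm in HFD fl/fl mice (618 to 4604 CPM), and all groups overlap when the open points are counted.

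The genes varied far more between mice of a group than most genes did. The standard deviation (SD) of log2 CPM within groups, pooled over the 4 groups, had a median of 0.39 over the 15020 genes tested and 1.97 over the 10 genes, all 10 of which lay above the 95th percentile. Ighg1 had an SD of 2.67, the largest of all genes tested, followed among these genes by Ighg2c with 2.37, Ighg2b with 2.35, Iglc1 with 2.26 and Ighg3 with 2.16. The SD was 1.03 for Ighm, 1.14 for Ighd, 1.44 for Igha and 1.79 for Igkc. Over all libraries the highest level exceeded the lowest 15.3-fold for Ighm, 23.3-fold for Ighd, 83.2-fold for Igkc, 92.6-fold for Igha and 711-fold for Iglc1. Adipoq spanned 10.3-fold.

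Ighm and Igkc did not vary in proportion. The number of Ighm counts per Igkc count ranged from 0.406 in HFD AKO replicate 1 to 10.8 in HFD fl/fl replicate 4, with a median of 0.662. Each transcript gives a tag whatever its length, but capture can differ between genes, so the ratio was compared between libraries only. Ighm exceeded Igkc in 8 libraries, namely 2 of 6 chow fl/fl, 4 of 6 chow AKO, 2 of 6 HFD fl/fl and 0 of 6 HFD AKO mice, whose ratios lay between 0.406 and 0.661. The 2 highest ratios were 10.8 in HFD fl/fl replicate 4 and 4.05 in chow AKO replicate 3.

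In these 2 libraries Ighm was near its median over all libraries of 812 CPM, while Igkc and the plasma cell gene Jchain, which encodes the chain that joins IgM and IgA into polymers, were low. HFD fl/fl replicate 4 had 820 CPM of Ighm, 75.9 of Igkc and 6.32 of Jchain, and chow AKO replicate 3 had 827, 204 and 13.3 CPM. These 2 libraries had 5968 and 4283 CPM of Adipoq, against a median of 1730 over all libraries. Adipoq was 7897 and 4000 CPM in chow fl/fl replicate 1 and HFD fl/fl replicate 6, with ratios of 1.69 and 2.03. Chow AKO replicates 1 and 2 had 5193 and 4071 CPM and ratios of 2.25 and 1.81. Chow fl/fl replicate 4 and chow AKO replicate 4 had 1871 and 2128 CPM and ratios of 1.38 and 1.03. At 2412 to 2559 CPM, chow fl/fl replicates 3, 5 and 6 had ratios below 1. HFD AKO mice had at most 1774 CPM. The part of the adipocyte content in the ratio was not tested. Igkc per Jchain stayed between 5.75 and 16.9 over the 24 libraries, whereas Ighm per Jchain ranged from 4.19 to 130.

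**Figure D2:**
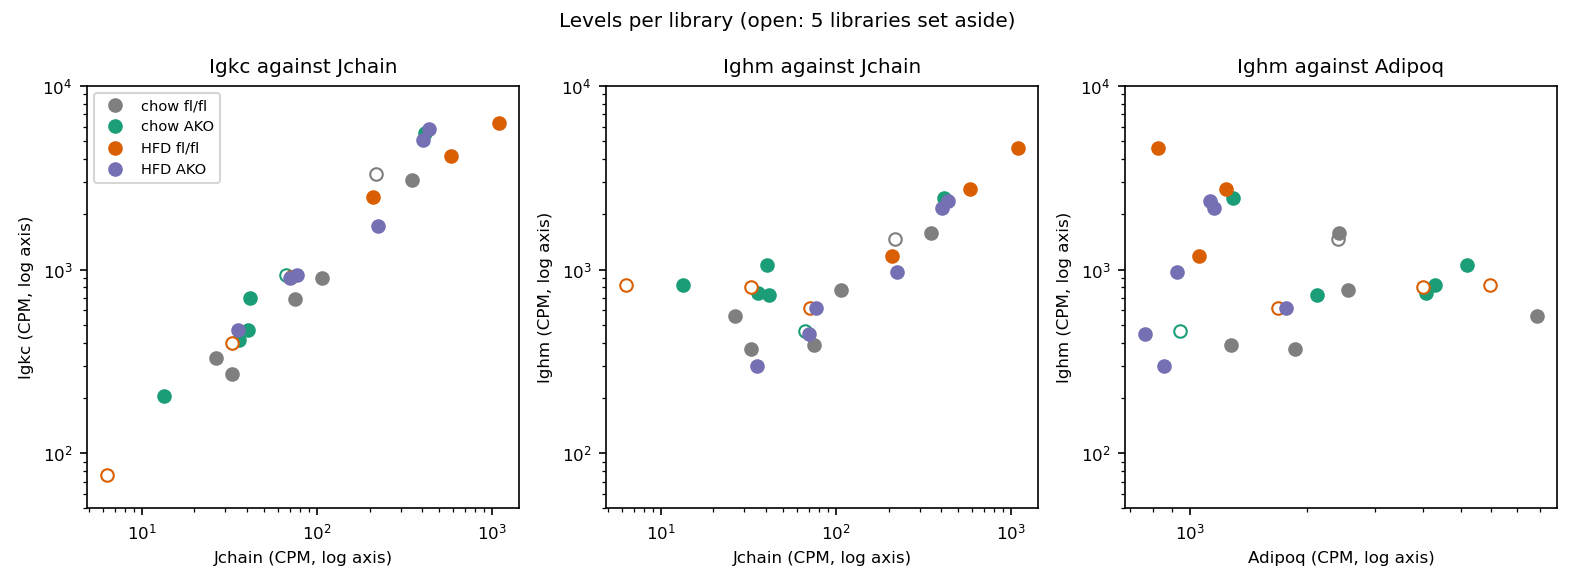
Levels per library in CPM on log axes, with Igkc against Jchain, Ighm against Jchain and Ighm against Adipoq, colored by group and open for the 5 libraries set aside. Igkc rises with Jchain along a narrow band over the range of Jchain from 6.32 to 1099 CPM, while Ighm does not fall below 299.9 CPM in any library.

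Shares of the heavy chain classes within a library do not depend on its scaling. IgM took 89.6% ± 8.02 of heavy chain constant counts in chow fl/fl, 91.0% ± 9.40 in chow AKO, 89.2% ± 7.20 in HFD fl/fl and 79.6% ± 7.22 in HFD AKO mice (mean ± SD, n = 6 each). IgG took 5.29% ± 5.11, 5.5% ± 6.01, 8.36% ± 6.37 and 14.1% ± 7.95 in the same order, and IgA took 4.80% ± 3.06, 2.93% ± 2.96, 1.95% ± 1.56 and 5.79% ± 4.04. The lowest mean IgM share and the highest mean IgG share were thus in HFD AKO mice, with ranges that overlapped those of the other groups. Without the 5 libraries the HFD fl/fl means were 12.9% for IgG and 84.6% for IgM, nearer to those of HFD AKO mice. IgD took between 0.211% and 1.89% in every library.

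Single mice departed widely from these means. IgM took 99.4% in HFD fl/fl replicate 4 (95% Wilson interval 99.2 to 99.5) and 68.3% in HFD AKO replicate 2 (67.6 to 69.0). In these 2 mice IgG took 0.105% (0.0588 to 0.188, 11 counts) and 27.9% (27.3 to 28.6, 4809 counts). IgA took 12.8% in HFD AKO replicate 4 (12 to 13.6) and 11.0% in chow fl/fl replicate 2 (10.2 to 11.7). The intervals cover counting error only.

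The subclass that led within IgG differed between mice. Ighg2b was the leading IgG gene in 6 of 6 chow fl/fl and 4 of 6 HFD fl/fl mice, and Ighg2c led in 4 of 6 HFD AKO mice. In chow AKO mice Ighg2b led in 3, Ighg3 in 2 and Ighg2c in 1. Some leads were narrow or rested on few counts. In chow fl/fl replicate 2, Ighg2b had 371 and Ighg2c 353 of 1009 IgG counts. In chow AKO replicate 4, Ighg3 had 108 and Ighg2b 87 of 320, and in HFD fl/fl replicate 4 Ighg2c had 6 of 11. Ighg2c took 16.3% ± 10.2 of IgG counts in chow fl/fl, 29.7% ± 5.93 in chow AKO, 31.1% ± 19.5 in HFD fl/fl and 48.1% ± 15.8 in HFD AKO mice, and Ighg2b took 58.6% ± 13.1, 36.8% ± 17.2, 56.2% ± 19.6 and 40.1% ± 14.1 (mean ± SD, n = 6 each). Ighg3 took 21.8% ± 10.6 and 24.7% ± 17.6 in the chow-fed groups and 6.74% ± 4.39 and 8.10% ± 5.75 in the HFD-fed groups, with ranges of 7.35% to 32.9%, 5.56% to 55.1%, 0.615% to 13.1% and 0.521% to 17.3%. The Ighg3 share was lower on average in both HFD-fed groups, and the ranges overlapped.

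The depth behind a subclass share ranged from 11 IgG counts in HFD fl/fl replicate 4 and 36 in chow AKO replicate 3 to 14161 in HFD fl/fl replicate 1. In chow AKO replicate 1, Ighg3 took 55.1% of 374 IgG counts (50.01 to 60.04) and Ighg1 had 1 count. In HFD AKO replicate 3, Ighg2c took 64.5% of 6129 counts (63.3 to 65.7). In HFD AKO replicate 1, Ighg3 took 0.521% of 4223 counts (0.344 to 0.788). Intervals of single mice were narrower than the differences between these mice.

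**Figure D3:**
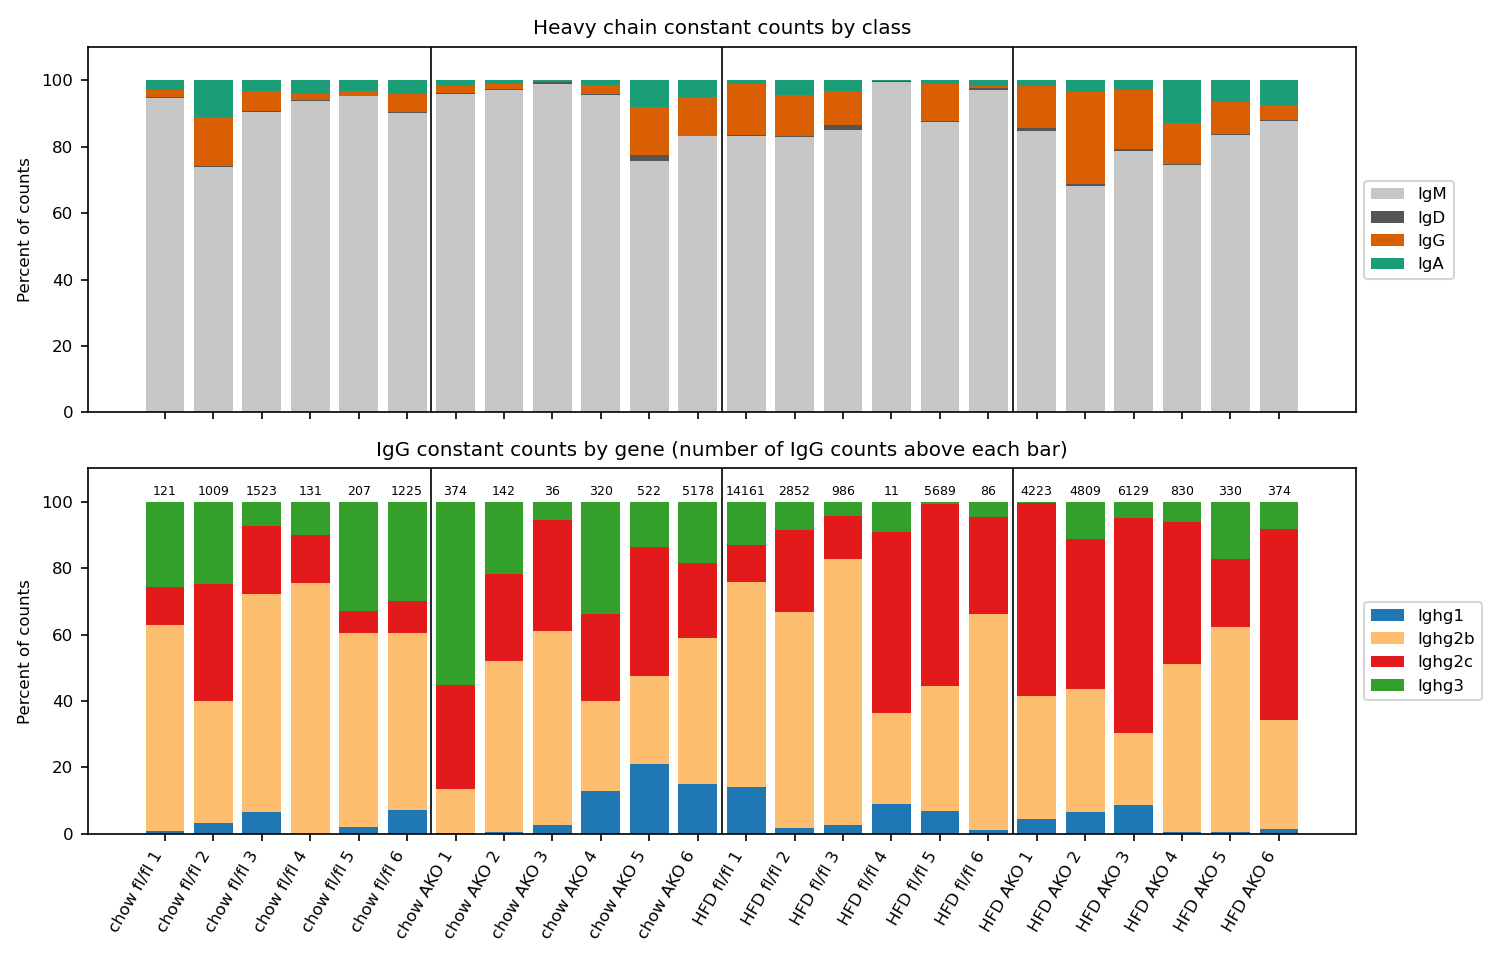
Percent of heavy chain constant counts by class (top) and percent of IgG constant counts by gene with the number of IgG counts above each bar (bottom), 1 bar per library. IgM fills 68.3% to 99.4% of each upper bar, and in the lower panel the leading gene changes from mouse to mouse, on 11 to 14161 counts.

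Kappa took 94.0% ± 2.84 of light chain constant counts in chow fl/fl, 95.1% ± 2.48 in chow AKO, 91.7% ± 5.64 in HFD fl/fl and 93.5% ± 2.23 in HFD AKO mice (mean ± SD, n = 6 each). The 2 lowest shares were 84.3% in HFD fl/fl replicate 2 (84.0 to 84.7) and 84.6% in HFD fl/fl replicate 1 (84.4 to 84.8), below the 90.5% of the next mouse. Iglc1 took between 28.0% and 82.9% of lambda constant counts, with overlap of all groups.

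Summed over the 10 genes, the level had medians of 713 CPM in chow fl/fl, 815 in chow AKO, 1244 in HFD fl/fl and 1114 in HFD AKO mice, with ranges of 420 to 2013, 654 to 3136, 755 to 6491 and 377 to 3072 CPM. The difference in mean log2 level between HFD and chow was 0.95 in fl/fl and 0.20 in AKO mice, against an SD within groups of 0.83 to 1.28. AKO differed from fl/fl mice by -0.49 on HFD and by 0.26 on chow. Each of these differences was smaller than the larger SD of the groups compared. Without the 5 libraries the difference between HFD and chow in fl/fl mice was 2.19, from 3 HFD-fed mice.

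None of the 10 genes was called in any of the 5 comparisons by edgeR's quasi-likelihood test over all genes, where calls were limited to fold changes of 1.5 or more with a nominal p no higher than 0.001 and a higher group that averaged 2 CPM or more. All 10 passed the filter on low counts. The share called among all 15020 genes was 0.173% for HFD against chow in fl/fl, 4.12% for HFD against chow in AKO, 0.173% for AKO against fl/fl on HFD, 0.113% for AKO against fl/fl on chow and 0.386% for the interaction of diet and genotype. At an unadjusted p under 0.05 the counts were 1, 1, 0, 0 and 0 of the 10 genes, beside 9.01%, 39.8%, 14.8%, 5.85% and 15.6% of all genes. DESeq2 also called 0 of 10, beside 59, 1315, 81, 41 and 148 of 15020 genes. At an unadjusted p under 0.05 it had 5, 1, 0, 0 and 0 of the 10, beside 1600, 6284, 2557, 981 and 2596. Likewise limma-voom called 0 of 10, beside 25, 604, 30, 19 and 54 of 15020 genes. At an unadjusted p under 0.05 it had 0, 1, 0, 0 and 0 of the 10, beside 1316, 6088, 1845, 922 and 2340. With 24 libraries, values of the compared groups overlapped for all 10 genes in each of the 4 comparisons of groups, while 0.213%, 6.86%, 0.533% and 0.260% of all genes had no overlap.

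Fold changes were large in size and wide in error, and the comparisons share groups of mice. For HFD against chow in fl/fl mice, Ighg2c had a log2 fold change of 2.51 (SE 1.21, adjusted p = 0.550) and Ighg1 one of 3.24 (SE 1.58, adjusted p = 0.557). Ighg2b had 2.36, Iglc1 2.25 and Ighm 1.07, with adjusted p of 0.557, 0.557 and 0.594. HFD fl/fl replicate 1 carried much of these values, since without it the log2 fold change was 1.14 for Ighg1, 1.2 for Ighg2b, 1.23 for Iglc1 and 0.53 for Ighm. Ighg2c fell to 1.61 without HFD fl/fl replicate 5. The median log2 fold change of the 10 genes was 1.09, with 8 above 0, beside a median of -0.01 over all genes tested.

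For HFD against chow in AKO mice, Ighg2c had a log2 fold change of 2.54 (SE 1.2, adjusted p = 0.118) and Iglc1 one of 1.68 (SE 1.09, adjusted p = 0.249). Ighg2c ranged from 2.04 to 3.68 and Iglc1 from 1.09 to 2.95 when each mouse was left out in turn. Ighm was at 0.12 (SE 0.56, adjusted p = 0.886), and its sign turned under several of the alternatives. The median of the 10 genes was 0.84 in edgeR and 1.71 in limma-voom, with 9 above 0 in both. A two-sided exact permutation test of log2 CPM gave p = 0.0563 for Ighg2c in AKO mice and p = 0.290 in fl/fl mice, unadjusted.

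For AKO against fl/fl mice on HFD, Ighm had a log2 fold change of -0.65 (SE 0.57, adjusted p = 0.557) and Igha one of 0.73 (SE 0.72, adjusted p = 0.610). On chow, Ighg1 had 2.20 (SE 1.54, adjusted p = 0.928) and Iglc2 had -0.97 (SE 0.93, adjusted p = 0.953). Ighg1 was at 0.51 without chow AKO replicate 6, and Iglc2 was at 0.48 without chow fl/fl replicate 6. The interaction was -3.02 for Ighg1 (SE 2.10, adjusted p = 0.455) and -0.95 for Ighm (SE 0.80, adjusted p = 0.533), and that of Ighg1 was -0.92 without HFD fl/fl replicate 1. The median of the 10 genes was -0.66 on HFD, 0.27 on chow and -0.33 for the interaction in edgeR, and 0.68, -0.27 and 1.22 in limma-voom, so the sign of the genotype difference depended on the test.

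Without the 5 libraries, 0 of 10 genes were again called by edgeR's quasi-likelihood test, beside 11.8%, 15.7%, 0.565%, 0.209% and 0.680% of 14863 genes in the order above. At an unadjusted p under 0.05 the counts were 5, 1, 1, 0 and 1 of 10 genes, beside 41.4%, 49.2%, 11.1%, 8.50% and 12.2% of all genes. For HFD against chow in fl/fl mice, all 10 log2 fold changes were then above 0 with a median of 1.96, and 4 of 10 had an adjusted p of at most 0.05, beside 29.0% of all genes. These were Ighm with 1.96 (adjusted p = 0.0273), Ighg2b with 3.71 (adjusted p = 0.0275), Ighg2c with 3.78 (adjusted p = 0.0368) and Iglc1 with 3.39 (adjusted p = 0.0258). For each of these genes, the 3 HFD fl/fl mice left out were the 3 lowest of their group. Their Ighm lay between 618 and 820 CPM, against 1184 or more in the 3 kept. These adjusted p therefore leave out part of the spread between HFD fl/fl mice. Groups did not overlap for 3 of 10 genes in this comparison (Ighg2b, Ighg2c and Iglc1), close to the 29.3% of all genes, and for 0 of 10 in the comparisons of diet in AKO mice and of genotype on HFD and on chow, beside 16.7%, 4.61% and 1.13%. With 3 HFD fl/fl mice, leaving out 1 more library changed the calls. Without chow fl/fl replicate 6, Iglc1 and Iglc2 were called higher at 4.74 and 3.68, beside 9.91% of all genes called. Without chow AKO replicate 6, Ighg2b was called in fl/fl mice at 3.70, beside 13.2% of all genes, and Ighg2c at 4.88, Ighg2b at 4.18 and Igha at 2.41 were called in AKO mice, beside 20.0% of all genes.

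**Figure D4:**
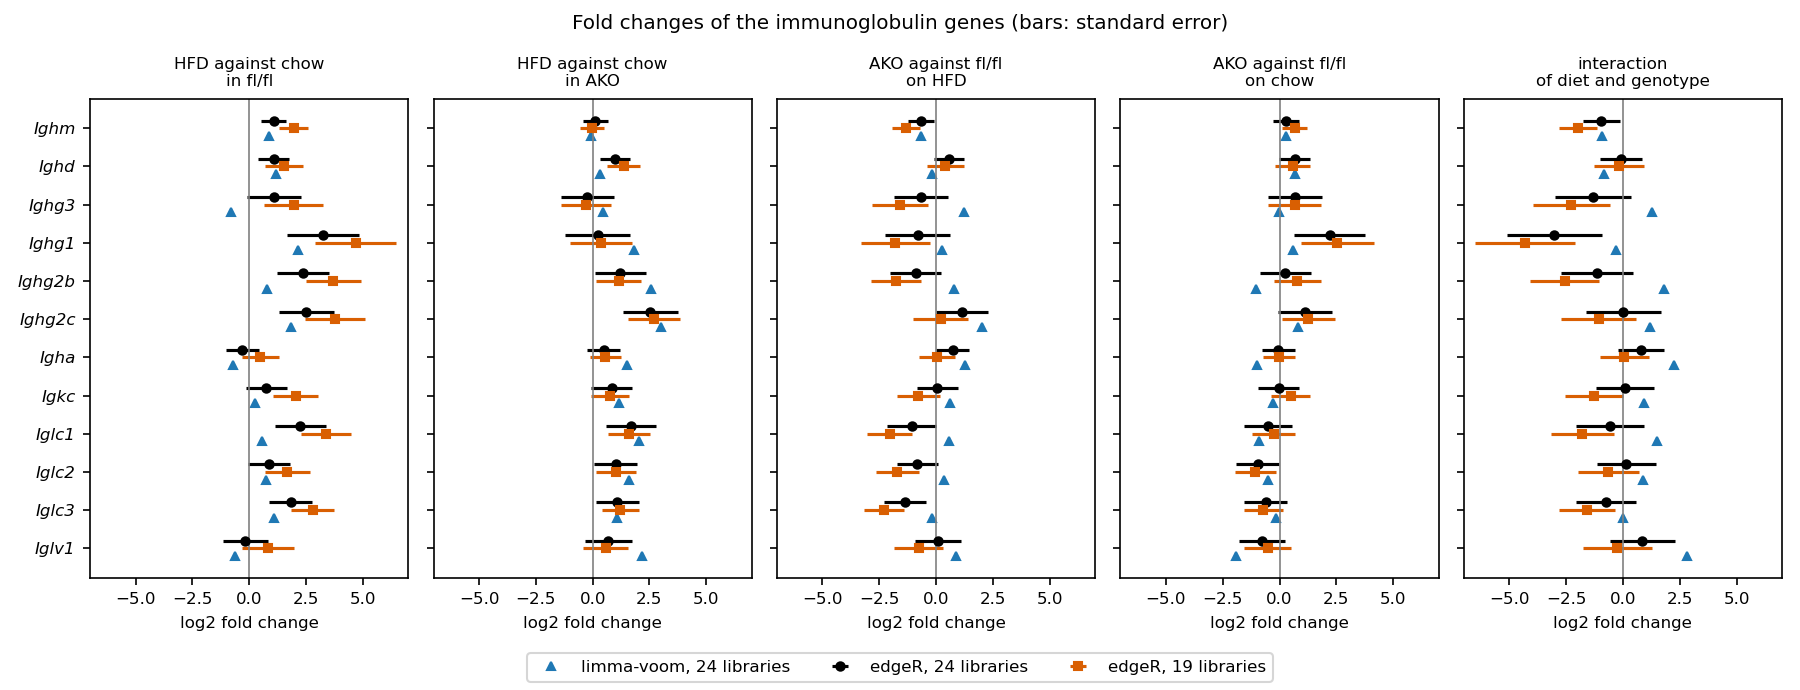
Log2 fold change of each gene in the 5 comparisons from edgeR with 24 libraries, edgeR with 19 libraries (bars: standard error) and limma-voom with 24 libraries. Standard errors are as large as 1.58 for Ighg1 between HFD and chow in fl/fl mice, and for AKO against fl/fl on HFD the limma-voom values lie on the other side of 0 for several genes such as Ighg3 and Iglc1 (median over the 10 genes 0.68 against -0.66).

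Within groups, most constant genes varied with markers of plasma cells and B cells, and with the T cell marker Cd3e as well. Pearson correlations of log2 CPM over the 24 libraries, after subtraction of group means, were computed for 11 constant genes (Igkc and Iglc3 included) with 7 markers, which gives 77 pairs tested by 100000 permutations within groups. Of these, 73 had an adjusted p of at most 0.05, 63 did so without the 2 libraries farthest from the median of the marker, and 55 did so in the 19 libraries. All 11 constant genes passed with Jchain and all 11 with Mzb1, which encodes a chaperone of IgM assembly in plasma cells, in each of these sets. Cd3e, which encodes a chain of the T cell receptor complex, passed with all 11 in both the 24 and the 19 libraries, with a median r of 0.75 beside 0.772 for the B cell gene Ms4a1, 0.644 for the B cell gene Cd79a and 0.881 for Jchain. With Adipoq 9 of 11 passed in 24 libraries and 1 in 19, and with the macrophage marker Adgre1 10 and 2 passed.

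Igkc followed Jchain most closely, with r = 0.984 and Spearman rho = 0.982 (permutation p = 1e-05, the smallest these permutations can give, adjusted p = 3.85e-05), and r = 0.972 without the 2 farthest libraries. Ighm followed it with r = 0.818 and rho = 0.774 (adjusted permutation p = 3.85e-05), and r = 0.767 without the 2 libraries. Ighm had r = -0.16 and rho = 0.0252 with Adipoq (adjusted permutation p = 0.472), whereas Igkc had r = -0.61 and rho = -0.51 (adjusted permutation p = 0.0073). The relation of Igkc to Adipoq rested on few libraries, since r was -0.42 without the 2 farthest (adjusted permutation p = 0.0676) and -0.39 in the 19 (adjusted permutation p = 0.191).

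Ighd followed the B cell surface gene Ms4a1 (CD20) with r = 0.899 and rho = 0.863 (adjusted permutation p = 3.85e-05, r = 0.879 without the 2 farthest libraries), and Jchain with r = 0.669. Ms4a1 ranged from 0.420 to 15.5 CPM over all libraries and Cd79a, which encodes a signaling chain of the B cell receptor, from 0 to 2.17 CPM. Ighg2b had r = 0.921 with Jchain and -0.75 with Adipoq, and Igha had r = 0.839 and -0.72. The pair that stood lowest among the IgG genes and B cell markers was Ighg3 with Cd79a (r = 0.414, adjusted permutation p = 0.0931).

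**Figure D5:**
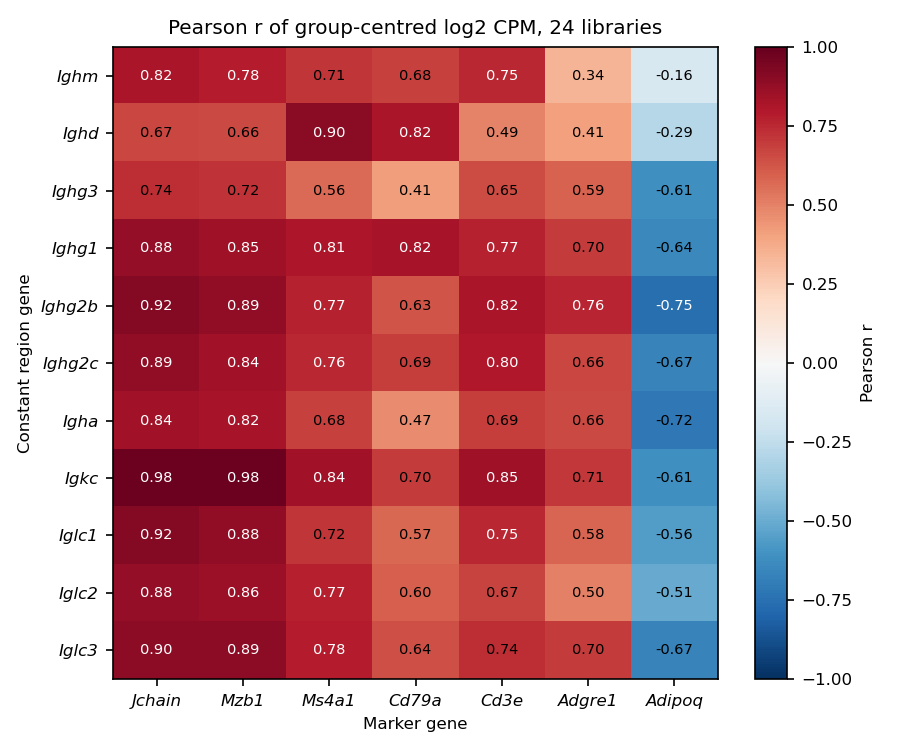
Pearson r of group-centred log2 CPM between 11 constant region genes (rows) and 7 marker genes (columns) over 24 libraries. The Jchain column runs from 0.669 for Ighd to 0.984 for Igkc, and the Adipoq column from -0.75 for Ighg2b to -0.16 for Ighm.

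Of all genes tested outside the antibody genes, those most like a constant gene in this measure are given as a description over 24 libraries. For Igkc they were Jchain, Mzb1 and Pou2af1, a B cell coactivator of octamer factors (r = 0.976 to 0.984). For Ighm they were Tent5c, a poly(A) polymerase abundant in plasma cells, Eaf2 and A630023P12Rik (r = 0.897 to 0.937). For Ighd they included the B cell genes Bank1 and Ms4a1 (r = 0.904 and 0.899). For Ighg2b they were Il21r, Acap1 and Hdc (r = 0.923 to 0.946), for Ighg2c Ptprcap, Spib and Gpr18 (r = 0.908 to 0.912), for Ighg1 Gpr18, Gimap3 and Carmil2 (r = 0.923 to 0.935), and for Ighg3 Samd3, Btaf1 and Il18bp (r = 0.796 to 0.809). Igha had A130071D04Rik, Traf1 and Madd (r = 0.867 to 0.880), Iglc1 had Anks3, Jchain and Gpr55 (r = 0.894 to 0.918), Iglc2 had Jchain, Gpr55 and Pou2af1 (r = 0.862 to 0.880), and Iglc3 had Tpsg1, Ptprcap and Gpr55 (r = 0.908 to 0.918).

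The genes that surround antibody production were measured beside them. Of 14 B lymphocyte markers and 13 plasma cell genes, 0 were called by edgeR's quasi-likelihood test in any of the 5 comparisons with 24 libraries. At an unadjusted p under 0.05 there were 3 B lymphocyte markers and 1 plasma cell gene for HFD against chow in fl/fl mice, and 1 and 3 in AKO mice, beside 9.01% and 39.8% of all genes. In AKO mice DESeq2 called 1 plasma cell gene and limma-voom called 0. In the 19 libraries 1 B lymphocyte marker was called in fl/fl mice, beside 11.8% of all genes, and 3 plasma cell genes were called in AKO mice, beside 15.7%. The B lymphocyte markers had a median log2 fold change of 1.14 for HFD against chow in fl/fl and 1.02 in AKO mice, and the plasma cell genes had 0.15 and 0.50. Summed over the 13 plasma cell genes, the level had medians of 502, 353, 562 and 685 CPM in chow fl/fl, chow AKO, HFD fl/fl and HFD AKO mice, with overlap of all groups. The sums lay between 265 and 1776 CPM over all libraries, while Jchain spanned 174-fold and Mzb1 165-fold. HFD fl/fl replicate 4 had 6.32 CPM of Jchain, 0.553 of Mzb1 and 0.395 of Pou2af1, although no HFD fl/fl sum was below 270 CPM. Other genes of the list thus made up most of its sum, which is no measure of plasma cells alone. Of 9 genes of recombination, class switching and precursor B cells, 4 were tested, and of 11 survival factors and receptors of B cells, 8 were tested, with 0 called by edgeR, limma-voom or DESeq2 and 3 survival genes at an unadjusted p under 0.05 between HFD and chow in fl/fl mice, where 1 was called in the 19 libraries. Of 10 Fc receptor and transport genes, Fcer1a and Ms4a2, which encode the α and β chains of the high-affinity IgE receptor of mast cells, were called higher in HFD-fed than chow-fed AKO mice by all 3 tools. Of all 15020 genes, edgeR called 4.12%, limma-voom 604 and DESeq2 1315 between these groups. No gene of 10 T cell, 10 macrophage, 3 lymph node stroma or 5 blood markers was called by any of the 3 tools with 24 libraries, while in the 19 libraries 1 T cell marker was called in fl/fl mice and 2 macrophage markers in AKO mice. Between HFD-fed and chow-fed AKO mice, 5 macrophage markers had an unadjusted p under 0.05, near the 39.8% of all genes. In that comparison 1 of 8 adipocyte markers (Lep, leptin) and 1 of 5 mesothelial markers (Msln) were called lower on HFD by edgeR, Msln not by limma-voom. This stood beside 4.12% of all genes called by edgeR. At an unadjusted p under 0.05 there were 6 adipocyte and 4 mesothelial markers, beside 39.8% of all genes. Their median log2 fold changes were -0.98 and -1.52. In the 19 libraries 3 adipocyte markers and 1 mesothelial marker were called between these groups, beside 15.7% of all genes. None of the 7 epididymis and testis genes passed the filter. Summed macrophage markers had medians of 6890.4, 3654, 6114 and 8669 CPM in the 4 groups, and their part in the values of the antibody genes was not tested.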

How the data were processed

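RNA from eWAT of 24 mice was sequenced as 50-base QuantSeq 3′ reads. The authors counted reads per gene with the QuantSeq pipeline and deposited raw counts. They also deposited a normalized signal, the same counts divided by 1 size factor per library, which was used here for gene symbols only. The submitters' processing notes name R 4.0.3 and DESeq2 1.30. Tests of the counts used edgeR 4.0.16 under R 4.3.3 (quasi-likelihood test, TMM factors, 1 coefficient per group, 24 libraries, a minimum of 1 CPM in 3 mice, Benjamini-Hochberg adjustment over all genes tested). Alternatives used limma 3.58.1, DESeq2 1.42.0, RLE factors, totals without immunoglobulin genes, no filter, fits of only the 2 groups compared, a replicate block, other call rules, 19 libraries and each mouse left out. Log2 CPM had a pseudocount of 0.5. The standard error (SE) of an edgeR log2 fold change was derived from its test. It is the absolute log2 fold change divided by the square root of the quasi-likelihood F statistic. Shares have 95% Wilson intervals, and a count of 0 allows up to 3 counts, for counting error only. The samples are separate mice. No 2 libraries of a group were duplicates (60 pairs, chi-square per degree of freedom at least 5.72). Same-numbered mice did not deviate together (36 pairs, median correlation 0.000242, 12 over 0.1). The edgeR code was tested on simulated counts.

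The members and the gene lists were chosen with earlier results of these data known, so they are no independent evidence. Named genes are every constant region gene, Iglv1, the members with the lowest p in each comparison, the marker lists and, for each constant gene, the 3 non-members with the highest correlation, of which 1 gene is not reported here. Igkc and Iglc3 were named from the reference gene names, which gave a name to 2616 of the 2663 genes without a symbol. Use of variable genes and a planned search for an octamer motif in promoters were not run, because 1 variable gene was in the table and the reference tables used held no promoter of these genes. The coding sequences are from GENCODE release M21 on GRCm38.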

Additional observations from a re-analysis of the deposited data

Results flagged for a closer look

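In groups of 6 mice, a mouse was singled out where its gap to the nearest other mouse, as a part of the group's range, exceeded the 95% critical value of Dixon's test, which chance does in about 1 of 20 groups. Of 64 groups of values examined, 4 were singled out, and chance gives about 3. Chow fl/fl replicate 2 accounted for 3 of them, which are shares of the same total and so not separate. Its IgM share of heavy chain counts was 73.8%, with 90.1% to 95.2% in the other chow fl/fl mice. Its IgG share was 15.0%, with 1.45% to 5.99% in the others, and its IgA share was 11.0%, with 3.06% to 4.22% in the others. The remaining one was Iglv1 in chow AKO replicate 6, with a log2 CPM of 3.20 against -1.0 to 0.44 in the other chow AKO mice.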

How the results depend on the processing

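The count of called genes was 0 of 10 with each of the other tests, scalings, filters, call rules and sets of mice named in the methods, changed 1 at a time, in every comparison fitted, with a replicate block too. The other call rules were applied to all 24 libraries only. In the 19, Ighm, Ighg2b, Ighg2c and Iglc1 had an adjusted p of at most 0.05 in edgeR for HFD against chow in fl/fl mice. Same-numbered mice share only a number, and with the block 0 of 10 genes were called in each comparison, while the median of the 10 log2 fold changes for AKO against fl/fl on HFD moved from -0.66 to 0.09. By deviations from the group means, 5 of 24 libraries correlated best with their own number. An alternative chosen after seeing the data left out each of the 19 libraries in turn, and calls ranged from 0 to 2 for HFD against chow in fl/fl (2 without chow fl/fl replicate 6) and from 0 to 3 in AKO mice (3 without chow AKO replicate 6).

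The summed log2 difference between HFD and chow in fl/fl mice went from 0.95 to 2.19 without the 5 libraries, and its interaction with genotype from -0.75 to -2.12. Ighm between HFD and chow in AKO mice, 0.12 in the report, was -0.030 without the 5 libraries, -0.051 with limma-voom, -0.068 as a difference of mean log2 CPM, and -0.22 to 0.57 when each mouse was left out. Iglc2 between AKO and fl/fl mice on chow ranged from -1.39 to 0.48. The causes were not tested. Pairs of constant genes and markers that passed numbered 73 with RLE factors, 71 with Spearman's rho and 69 to 74 when each mouse was left out. Depth limited the IgG subclass shares of 2 libraries, which had 11 and 36 IgG counts.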

Other observations

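The antibody genes also differed in how far they moved with each other within groups, over the 24 libraries after subtraction of group means. The closest pairs were Igkc with Iglv1 (r = 0.954) and Igkc with Ighg2b (r = 0.919). The lowest were Ighd with Ighg3 (r = 0.336), Ighd with Igha (r = 0.434), Ighm with Ighg3 (r = 0.481) and Ighm with Igha (r = 0.481). These are descriptions over libraries that also share differences in tissue make-up.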
